A study of Mus musculus with 23 samples.

Results

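Voltage-gated sodium and calcium channels set how a neuron fires and releases transmitter, and their subunit genes were described here in RNA bound to tagged ribosomes of mouse spinal cord. The 39 genes are those, of 38924 genes in the deposited tables, whose symbol follows the pattern of a sodium channel subunit (Scn, a number, and a or b) or of a calcium channel alpha1, alpha2delta, beta or gamma subunit (Cacna, Cacnb or Cacng and a number). By role they are 9 sodium channel alpha subunits, 4 sodium channel beta subunits, 7 high-voltage-activated calcium channel alpha1 subunits, 3 T-type alpha1 subunits, 4 alpha2delta subunits, 4 cytosolic calcium channel beta subunits and 8 gamma subunits. The gene for another neuronal sodium channel pore, Scn2a, carries the older symbol Scn2a1 in the tables and so falls outside the pattern.

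The mice were 2 weeks old, on a B6.CgxB6.129 background, and every animal was Rpl+/-, which is to say it carried the RiboTag allele of ribosomal protein gene Rpl22. Cre recombinase switches that allele to a haemagglutinin-tagged form. The 23 libraries were anti-haemagglutinin precipitates in 4 groups. The wild-type Cre group (n = 5) was Rpl+/-;Chat+/-;C201R+/+, the mutant Cre group (n = 6) was Rpl+/-;Chat+/-;C201R+/-, the wild-type no-Cre group (n = 6) was Rpl+/-;Chat+/+;C201R+/+ and the mutant no-Cre group (n = 6) was Rpl+/-;Chat+/+;C201R+/-. C201R is a dominant allele of Gars, the glycyl-tRNA synthetase gene, and models an inherited neuropathy before its onset. Chat+/- denotes the Cre allele at the choline acetyltransferase gene, which acts in all cholinergic cells, motor neurons among them, so that the tagged ribosomes are not those of motor neurons alone. Whether the libraries come from different animals is not stated, and a p-value therefore reflects only how these libraries vary.

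As background, the alpha subunit of a sodium channel forms the whole pore and its gates, and small beta subunits with a single membrane span tune gating and placement. Calcium channels are likewise built around a pore-forming alpha1 subunit. The high-voltage-activated kinds recruit a cytosolic beta subunit and an extracellular alpha2delta subunit that bring the channel to the membrane, whereas T-type pores open near rest and work without them. Most gamma subunits are better known as transmembrane AMPA receptor regulatory proteins (TARPs), which carry glutamate receptors to synapses. In motor neurons sodium channels cluster at the axon initial segment and at nodes, and P/Q-type calcium channels trigger acetylcholine release at the muscle.

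Total expected counts per library ran from 9031629 to 19671837, of which ribosomal RNA-like genes took 50.6 to 95.6%, leaving 594362 to 6237380 counts. In units of CPM (TMM-scaled counts per 1000000), the choline acetyltransferase gene Chat averaged 56.1 ± 11.8 (SD, n = 5) for wild type and 33.7 ± 13.7 (n = 6) for mutants with Cre, against 2.25 ± 1.88 and 3.12 ± 2.64 CPM (n = 6 each) in their no-Cre counterparts. Gars was higher with Cre on average (1.81, SE 0.22, edgeR adjusted p = 1.13e-07) and Rpl22 lower (-0.45, SE 0.18, 0.0348). Over the 8 motor neuron and cholinergic markers in the tables, the summed level was 404.7 to 572.3 CPM in wild-type Cre, 141.1 to 478.8 in mutant Cre, 20.4 to 82.7 in wild-type no-Cre and 21.4 to 25.6 in mutant no-Cre libraries. All 8 were higher with Cre on average and all 7 oligodendrocyte markers were lower (edgeR). The oligodendrocyte markers summed to 534.9 to 2951 and 790.3 to 6920 CPM in wild-type and mutant Cre libraries, against 6993 to 13460 and 7210 to 16710 without Cre. Replicates 4 and 6 of the mutant Cre group, at 210.3 and 141.1 CPM of motor neuron markers and 5018 and 6920 of oligodendrocyte markers, stood apart from the other 4 libraries of that group, and both carry the leading number 18405 in their titles. The C201R change itself cannot be seen in counts per gene. The labels do not say what the title number is, and it was treated only as a possible batch. Expected counts that are not whole, which RSEM gives where it divides reads between genes, stood in all 23 libraries for Cacng4 and Scn1a, in 22 for Scn3a and Cacng2, in 19 for Scn9a, in 12 for Scn2b and in 11 for Cacnb4, and these genes are less certain than members with whole counts throughout.

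Among the channel genes, Cacng5 and Cacna2d3 had the largest rises with Cre and Cacng4 the largest fall of those called in both genotypes, and 3 classes (sodium channel alpha, calcium channel beta and gamma) held calls in both directions. Averaged over both genotypes (edgeR quasi-likelihood test, Benjamini-Hochberg adjusted p under 0.05), 8 of the 30 members tested were higher with Cre and 6 were lower, beside a background of 22.1% of all 14468 genes tested called higher and 34.7% called lower (56.8% in all). Their median log2 difference was 0.03, against -0.28 over all genes. The other 9 members had too few counts to be tested in any comparison. In wild-type libraries 6 of 28 tested members were higher and 2 lower (20% and 25.9% of 12485 genes, 46% in all), with a median of -0.07 against -0.14 over all genes. In mutants 7 of 30 were higher and 3 lower (14.1% and 19.2% of 12741 genes, 33.3% in all), with medians of 0.07 and -0.14. No test set these counts against the background shares. Wild-type no-Cre replicate 2 and mutant no-Cre replicate 5 were the libraries that most often lay apart from their group. Without them the average counts were 9 higher and 8 lower, beside 24.8% and 36.9% of all genes. In wild type, leaving out no-Cre replicate 2 alone brought the members called to 13, of which 6 were lower. That fit called 53% of 12204 genes (24% higher and 29% lower), against 46% with the replicate, so the rise was not peculiar to these members. In mutants the count called lower was 1 without title number 18405, beside 18.2% of all genes.

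The wild-type and mutant comparisons share no library. Those called higher in both included Cacna2d3, Cacnb1, Cacng3 and Cacng5, and Cacng4 was called lower in both. Scn4b (higher) and Cacnb4 (lower) were called in wild type, and Cacna2d2 and Scn9a (higher) with Cacna1e and Cacna1i (lower) in mutants. None of these members was called in the test of the difference between the genotypes. Of the 28 members tested in both, 20 had the same sign, and r across these genes was 0.868, given as a description since genes are not independent. In a precipitate from whole tissue, fewer cells of a type and less RNA per cell cannot be told apart.

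**Figure D1:**
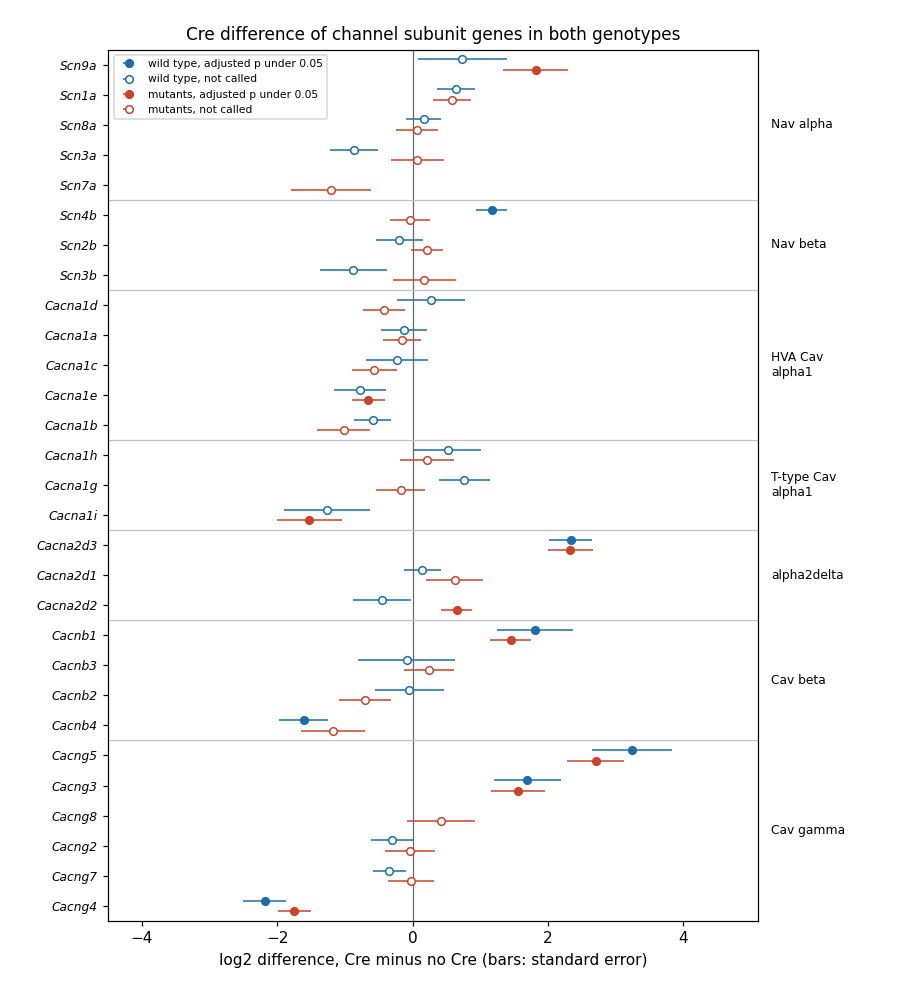
Log2 difference between Cre and no-Cre libraries (x axis, bars are standard errors) for the channel genes shown, grouped by subunit class, in wild type (blue) and mutants (red), with filled points for an adjusted p under 0.05. Each class has points on either side of 0, and Cacng5 (3.25 and 2.70) and Cacng4 (-2.19 and -1.75) lie farthest apart.

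RefSeq gives a promoter window on GRCm38.p6 for 29 of the 39 members. The 250 bases before the start site are printed for the members with the largest rises, Cacng5 and Cacna2d3, and the largest falls, Scn7a and Cacna1i, among called members whose RefSeq start lies within 10 bases of the GENCODE M21 gene start. Capitals mark the GC box, GGGCGG on either strand, and the last base printed adjoins the start site. The windows are chr11:107915056-107915305 on the minus strand for Cacng5, chr14:29721865-29722114 on the minus strand for Cacna2d3, chr2:66784911-66785160 on the minus strand for Scn7a and chr15:80286988-80287237 on the plus strand for Cacna1i.
Cacng5: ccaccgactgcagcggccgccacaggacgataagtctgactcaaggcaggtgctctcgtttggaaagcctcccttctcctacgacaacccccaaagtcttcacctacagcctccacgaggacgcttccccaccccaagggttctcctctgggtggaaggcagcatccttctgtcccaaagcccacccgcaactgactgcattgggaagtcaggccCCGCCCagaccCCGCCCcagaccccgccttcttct
Cacna2d3: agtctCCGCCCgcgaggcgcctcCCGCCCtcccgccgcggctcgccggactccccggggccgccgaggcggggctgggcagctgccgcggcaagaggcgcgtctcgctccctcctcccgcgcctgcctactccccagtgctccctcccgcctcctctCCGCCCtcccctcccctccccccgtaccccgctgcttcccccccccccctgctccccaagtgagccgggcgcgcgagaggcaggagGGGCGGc
Scn7a: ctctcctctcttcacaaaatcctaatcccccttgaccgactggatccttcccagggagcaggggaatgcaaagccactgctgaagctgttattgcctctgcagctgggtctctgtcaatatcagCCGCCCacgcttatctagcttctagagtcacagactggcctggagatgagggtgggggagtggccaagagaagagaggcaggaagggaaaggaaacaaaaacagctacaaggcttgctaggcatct
Cacna1i: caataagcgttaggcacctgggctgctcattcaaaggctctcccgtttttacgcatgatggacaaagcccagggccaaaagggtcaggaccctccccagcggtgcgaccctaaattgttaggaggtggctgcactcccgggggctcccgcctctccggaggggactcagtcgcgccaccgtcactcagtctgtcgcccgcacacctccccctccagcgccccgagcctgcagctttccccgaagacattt
The window of Cacna2d3 is 80.0% G and C, those of Cacng5 and Cacna1i 62.0% and 62.4%, and that of Scn7a 53.2%. The medians are 58.0% over the 29 members and 52.4% over all 32851 windows. A GC box was found in 12 of the 29 members, beside 32.7% of all windows. The 29 windows were not held to the 10-base limit. Some lie far from the GENCODE M21 gene start, among them those of Cacna1e (158581 bases), Cacnb4 (688) and Cacnb1 (407). Among the genes higher with Cre, Cacnb1, Cacng5 and Cacna2d3 hold at least 1 GC box, and among those lower Cacna1b, Cacnb4 and Scn7a do. TATAAA on either strand was in 1 member, Cacna1d, beside 12.4% of windows. Of the other motifs searched on both strands, TAATTA (4.84% of windows), CACGTG (6.02%), TGACGTCA (1.55%) and the left part of the REST element TTCAGCACC (0.301%) were in 0 of the 29. No searched motif is contained in another.

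Among sodium channel pores, Scn1a was the most abundant per length in every group, followed by Scn8a, the pore of mature nodes and initial segments. Scn1a (ENSMUSG00000064329, chr2:66270778-66440840) stood at 14.9 ± 2.60 CPM per kilobase of effective length (SD, n = 5) with Cre in wild type and 13.8 ± 4.65 (n = 6) in mutants, and Scn8a at 5.43 ± 2.16 and 5.60 ± 2.55. Scn9a was at 0.700 ± 0.232 and Scn3a, an embryonic pore, at 0.578 ± 0.110 CPM per kilobase in wild-type Cre libraries. These lowest 2 do not differ beyond their spread, whereas the ranges of Scn1a and Scn8a do not overlap there.

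Scn1a levels were 59.5, 94.9, 81.4, 75.1 and 91.2 CPM in the 5 wild-type Cre libraries, and 38.0 (lowest), 75.4 (median) and 106.3 (highest) in mutant Cre libraries. Without Cre they were 32.6, 48.9 and 104.4 CPM in wild type and 19.4, 50.6 and 59.4 in mutants. In wild type, replicate 2 at 104.4 CPM is the only no-Cre library that reaches the Cre range. In mutants, Cre replicates 4 and 6 at 56.0 and 38.0 CPM lie within the no-Cre range. The average log2 difference for Cre was 0.60 (SE 0.21, edgeR adjusted p = 0.0144). Neither genotype alone passed the test (0.64 and 0.59, adjusted p = 0.0706 and 0.118), and in wild type Scn1a did pass without that replicate (0.91, adjusted p = 0.00268).

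Scn8a had the smallest average Cre difference of the 5 sodium channel pores tested. Its means were 56.9 ± 22.6, 58.8 ± 26.7, 53.3 ± 11.01 and 53.6 ± 17.6 CPM in wild-type Cre, mutant Cre, wild-type no-Cre and mutant no-Cre libraries (n = 5, 6, 6 and 6). The average difference was 0.11 (SE 0.21, adjusted p = 0.672). The highest Cre libraries were wild-type replicate 2 at 93.2 CPM and mutant replicate 5 at 104.8.

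Scn9a, a pore best known from nociceptors and autonomic neurons, was higher with Cre on average by 1.27 (SE 0.42, edgeR adjusted p = 0.0118) and in mutants by 1.82 (SE 0.48, adjusted p = 0.00886). Its mutant Cre libraries ran from 4.07 to 9.99 CPM (median 6.35) and lay wholly above the mutant no-Cre libraries, at 0 to 3.99 CPM (median 1.32). In wild type the values with Cre were 4.37, 4.34, 2.40, 4.76 and 6.60 CPM, inside the no-Cre range of 0.419 to 9.72 (median 1.87), and the difference of 0.74 was not called (adjusted p = 0.371). Within title number 18405 the 2 mutant Cre libraries averaged 4.26 CPM against 3.99 in the only no-Cre library, a log2 ratio of 0.09. With title number as a block the average difference was 0.16 (adjusted p = 0.804), and Scn9a was not called. Markers of sensory ganglion neurons summed to 0.157 to 1.32 CPM in mutant Cre and 0 to 1.61 in mutant no-Cre libraries, with no marker at 0 throughout either group. In wild type they summed to 0 to 0.414 CPM with Cre, where Avil, Trpv1 and Mrgprd were listed at 0, and to 0 to 1.43 without.

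Scn7a codes for a sodium-sensing relative of the pores that is known from glia and Schwann cells. It was lower with Cre on average (-1.43, SE 0.52, adjusted p = 0.0214) and was too low to be tested in wild type alone. Its levels with Cre were 0.992, 1.19, 0.579, 0.529 and 0.228 CPM in wild type and 0.229 to 2.13 (median 0.773) in mutants, against 0 to 5.15 (median 1.77) and 0.885 to 4.10 (median 1.76) without Cre. All 4 groups overlap. Mutant replicates 4 and 6, at 2.13 and 1.88 CPM, were the highest Cre libraries, and the 5 Schwann cell markers were also highest there (341.5 and 510.0 CPM summed, against 27.5 to 45.9 in the other 4). The part of Schwann cell or glial RNA in the Scn7a difference was not tested. The call was lost without wild-type no-Cre replicate 5 or mutant no-Cre replicate 2 (adjusted p up to 0.0701).

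Scn4b (ENSMUSG00000046480, chr9:45138395-45154152) codes for the sodium channel beta subunit linked to resurgent sodium current. In wild-type Cre libraries it stood at 52.0, 37.4, 42.1, 42.0 and 51.3 CPM, all above the wild-type no-Cre range of 16.4 to 29.6 (median 18.9). Mutant Cre libraries, at 15.4 to 36.2 CPM (median 24.0), lay within the mutant no-Cre range of 15.1 to 49.3 (median 22.3). The upper end of that range is replicate 5, the shallowest library. Without it the range was 15.12 to 24.25 CPM and 3 of the 6 mutant Cre libraries lay above it. The Cre difference was 1.17 in wild type (SE 0.23, edgeR adjusted p = 0.000636) and -0.04 in mutants (SE 0.29, 0.931), or 0.43 (0.14) without that replicate. The difference between these differences is given below with the genotype comparison. Within title numbers 20302 and 20401 the wild-type ratios were 0.83 and 1.31.

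Scn2b, which sits 8324 bases from Scn4b on the same strand of chromosome 9 and codes for the related disulfide-linked subunit, did not follow it. It was at 9.13, 13.9, 13.8, 18.8 and 23.4 CPM in wild-type Cre and 16.5 to 26.3 (median 22.6) in mutant Cre libraries, against 12.3 to 42.5 (median 15.3) and 11.8 to 26.1 (median 19.1) without Cre. Its average Cre difference was -0.01 (SE 0.21, adjusted p = 0.967). Scn3b, a further beta subunit gene, was at 1.69 ± 0.461, 2.59 ± 1.13, 3.28 ± 1.68 and 2.07 ± 1.12 CPM in wild-type Cre, mutant Cre, wild-type no-Cre and mutant no-Cre libraries, and was not called (-0.36, SE 0.34, adjusted p = 0.373).

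Of the 5 high-voltage-activated calcium channel pores tested, 0 were higher with Cre and 2 were lower on average, beside 22.1% and 34.7% of all genes. Cacna1a, the P/Q-type pore, led the class per length in wild-type Cre libraries at 4.18 ± 1.05 CPM per kilobase, followed by Cacna1b at 1.72 ± 0.381, Cacna1e at 1.06 ± 0.427, Cacna1d at 0.819 ± 0.176 and Cacna1c at 0.541 ± 0.173 (n = 5). The order was the same in every group. In wild-type Cre libraries the ranges of Cacna1e, Cacna1d and Cacna1c overlapped one another.

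Cacna1a read 12.1, 20.8, 17.3, 17.2 and 24.6 CPM in wild-type Cre and 8.35 to 17.4 (median 14.5) in mutant Cre libraries, against 11.2 to 45.8 (median 18.1) and 7.12 to 19.3 (median 14.4) without Cre. Its average Cre difference was -0.15 (SE 0.22, adjusted p = 0.582), within the spread between libraries. Cacna1b, the N-type pore of presynaptic terminals, was lower with Cre on average by 0.82 on the log2 scale (-0.82, SE 0.25, edgeR adjusted p = 0.00672). It was not called in wild type alone (-0.59, edgeR adjusted p = 0.0896) or in mutants alone (-1.02, 0.0557). It was at 8.53, 10.4, 9.35, 14.5 and 12.6 CPM in wild-type Cre and 6.40 to 13.8 (median 9.34) in mutant Cre libraries. Without Cre it was at 10.7 to 23.7 (median 17.4) and 1.18 to 27.6 (median 20.7), and the ranges overlap.

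Cacna1e, the R-type pore, was also lower on average (-0.73, SE 0.23, edgeR adjusted p = 0.00963) and in mutants (-0.66, SE 0.24, 0.0471). Its wild-type difference of -0.77 (SE 0.39, 0.11) was not called. Levels were 6.55, 13.6, 13.8, 11.4 and 21.4 CPM in wild-type Cre and 9.54 to 19.1 (median 15.1) in mutant Cre libraries, against 5.45 to 37.4 (median 26.1) and 12.7 to 28.7 (median 23.4) without Cre. The mutant call was lost when 10 of its 12 libraries were each left out. Without title number 18405 neither Cacna1e (-0.49, adjusted p = 0.106) nor Cacna1b (-0.61, 0.0628) was called on average. The L-type pores Cacna1c and Cacna1d were not called (-0.41 and -0.09, adjusted p = 0.212 and 0.815). Cacna1d overlaps Chdh and Dcp1a, and Cacna1c overlaps Dcp1b, on the other strand. The strandedness of the libraries is not given in the sources used here, so reads of these genes may not be separable.

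Of the T-type pores, Cacna1g and Cacna1h made up nearly all of the level and Cacna1i was the low one that differed. Cacna1i was at 0.595, 1.36, 0.579, 1.21 and 1.48 CPM in wild-type Cre and 0.690 to 1.47 (median 0.961) in mutant Cre libraries, against 0.140 to 4.49 (median 2.99) and 0.587 to 6.89 (median 2.47) without Cre. It was lower on average by -1.41 (SE 0.40, edgeR adjusted p = 0.00395) and in mutants by -1.53 (SE 0.48, 0.022). The wild-type difference of -1.27 (SE 0.64, 0.113) was not called. The mutant call was lost without mutant no-Cre replicate 1 or mutant Cre replicate 2, 3 or 6, with differences of -0.92 to -1.63 and adjusted p up to 0.13 over libraries left out, and without title number 18405 (-1.275, 0.128). Only the lowest no-Cre libraries, wild-type replicate 2 and mutant replicates 4 and 5, fell into or below the Cre range. Cacna1g averaged 17.0 ± 3.98 and 15.4 ± 5.16 CPM with Cre and 10.5 ± 5.69 and 17.3 ± 11.7 without (difference 0.29, SE 0.27, adjusted p = 0.36). Cacna1h averaged 7.95 ± 2.03 and 6.43 ± 1.86 CPM with Cre and 5.79 ± 3.69 and 5.46 ± 3.00 without (0.35, SE 0.33, 0.37).

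Cacna2d3 was the alpha2delta subunit set apart by Cre. Alpha2delta proteins raise the number of channels at the surface, and Cacna2d1 and Cacna2d2 code for the subunits that gabapentin binds. Cacna2d3 (ENSMUSG00000021991, chr14:28904943-29721864) read 46.0, 32.5, 45.9, 39.7 and 34.8 CPM in wild-type Cre and 20.7 to 39.8 (median 34.8) in mutant Cre libraries. Without Cre it read 4.50 to 15.7 (median 6.58) and 0.587 to 8.41 (median 6.26). No Cre library fell into the no-Cre range. The differences were 2.33 (SE 0.32, edgeR adjusted p = 3.24e-05) in wild type and 2.33 (SE 0.33, 8.24e-05) in mutants. Within title numbers 20302 and 20401 the wild-type log2 ratios were 3.17 and 2.66, and within 18405 the mutant ratio was 1.76. Lrtm1 lies within Cacna2d3 on the other strand.

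Per length, Cacna2d3 led the alpha2delta class in wild-type Cre libraries at 11.2 ± 1.76 CPM per kilobase, ahead of Cacna2d2 at 7.99 ± 1.93 and Cacna2d1 at 2.25 ± 0.270 (n = 5), though the ranges of the first pair overlap (9.16 to 12.99 and 6.05 to 10.8). In mutant Cre libraries the order was the other way, within the spread, with Cacna2d2 at 9.03 ± 1.55 and Cacna2d3 at 8.90 ± 2.35 (n = 6). In wild-type no-Cre libraries Cacna2d2 led at 11.6 ± 11.5, a mean raised by replicate 2, where its level was 82.9 CPM against 12.2 to 19.2 in the other 5. In mutants Cacna2d2 was higher with Cre (0.65, SE 0.23, edgeR adjusted p = 0.0377), at 15.4 to 24.9 CPM (median 22.3) against 7.05 to 16.8 (median 14.1), but the call was lost without any of 5 libraries and the ranges overlap. Its wild-type difference was -0.45 (SE 0.43, 0.406). Cacna2d1 was not called on average (0.37, SE 0.26, 0.238).

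The cytosolic beta subunits went in opposite directions. Cacnb1 (ENSMUSG00000020882, chr11:98001508-98023034), which also serves the skeletal muscle channel, was at 11.3, 9.78, 10.8, 10.4 and 15.8 CPM in wild-type Cre libraries, all above the no-Cre range of 0 to 7.72 (median 3.06). Mutant Cre libraries ran from 6.15 to 12.6 (median 10.6), with the lowest, replicate 6, just under the highest no-Cre library at 6.17 (no-Cre median 2.88). The average difference was 1.61 (SE 0.33, edgeR adjusted p = 0.000133), with 1.82 in wild type (0.0146) and 1.45 in mutants (0.00156).

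Cacnb4, the beta subunit lost in the ataxic lethargic mouse, was lower on average by -1.40 (SE 0.32, edgeR adjusted p = 0.000522) and in wild type by -1.61 (SE 0.36, 0.00179). It was at 4.17, 16.4, 6.37, 5.82 and 10.5 CPM in wild-type Cre and 5.52 to 17.2 (median 9.10) in mutant Cre libraries. No-Cre libraries ran from 10.9 to 33.1 (median 31.8) in wild type and from 2.94 to 42.5 (median 17.3) in mutants, and the mutant difference of -1.18 was not called (0.0645). The wild-type no-Cre libraries other than replicate 2 were at 26.9 CPM or above, beyond all Cre libraries. Cacnb2 (-0.39, 0.318) and Cacnb3 (0.07, 0.889) were not called on average. Per length, Cacnb1 led the class with Cre at 5.37 ± 1.11 CPM per kilobase in wild type, whereas Cacnb4 led in wild-type no-Cre libraries at 3.77 ± 1.17 and Cacnb2 in mutant no-Cre libraries at 3.39 ± 1.67, where Cacnb4 was at 2.77 ± 2.17 and the pair do not differ beyond their spread.

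Gamma subunits held both extremes of all the channel genes. Cacng5 (ENSMUSG00000040373, chr11:107874605-107915055), a TARP with weak effects on AMPA receptor trafficking, had the largest rise. It read 18.5, 9.52, 10.9, 16.8 and 8.87 CPM in wild-type Cre and 5.96 to 14.4 (median 9.37) in mutant Cre libraries, all above the no-Cre libraries at 0 to 2.99 (median 1.32) in wild type and 0 to 2.78 (median 0.991) in mutants. The log2 difference was 3.25 (SE 0.59, edgeR adjusted p = 0.000385) in wild type, 2.70 (SE 0.43, 0.000191) in mutants and 2.96 (SE 0.38, 2.08e-07) on average. Within title number 20401 the wild-type ratio was 2.66 and within 18405 the mutant ratio was 1.39. In number 20302 the only no-Cre library was at 0 and gives no ratio.

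Cacng4 (ENSMUSG00000020723, chr11:107732357-107794557) is the nearest to Cacng5 of the channel genes described here, 80047 bases away on the same strand. It had the largest fall. Cacng4 was at 2.98, 7.59, 4.22, 8.01 and 7.96 CPM in wild-type Cre and 6.17 to 12.7 (median 8.00) in mutant Cre libraries, below all no-Cre libraries at 19.9 to 44.2 (median 30.0) in wild type and 21.7 to 36.4 (median 28.9) in mutants. The difference was -2.19 (SE 0.32, edgeR adjusted p = 6.42e-05) in wild type, -1.75 (SE 0.24, 6.94e-05) in mutants and -1.98 (SE 0.20, 5.63e-09) on average. Within title numbers 20302, 20401 and 18405 the ratios were -2.55, -2.25 and -0.94. Cacng4 is known from astrocytes and oligodendrocyte precursors as well as neurons. Mutant Cre replicates 4 and 6, the libraries with most oligodendrocyte markers, were also its highest Cre libraries at 10.99 and 12.7 CPM. The 4 oligodendrocyte precursor markers summed to 43.7 and 66.1 CPM there and to 5.56 to 27.4 in the other Cre libraries, against 39.8 to 93.8 and 47.0 to 92.5 without Cre. Their part in the Cacng4 difference was not tested.

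Cacng3, a TARP of forebrain principal neurons, was at 4.96, 7.24, 5.38, 8.62 and 6.94 CPM in wild-type Cre and 5.15 to 14.6 (median 10.6) in mutant Cre libraries, above all no-Cre libraries at 0.140 to 3.77 (median 2.21) and 0 to 4.25 (median 3.69). The average difference was 1.61 (SE 0.32, edgeR adjusted p = 0.000116). It was smaller within title numbers 20302 and 18405, at 0.71 and 0.58, than within 20401, at 1.53. Cacng7 was the most abundant gamma subunit per length in all groups, at 10.9 ± 3.42 CPM per kilobase in wild-type Cre libraries, and Cre did not set it apart (-0.20, SE 0.22, 0.45). Neither did it set apart Cacng2, or stargazin (-0.18, SE 0.26, 0.572). Behind Cacng7 the order changed with Cre. It ran Cacng3, Cacng5, Cacng2 and Cacng4 in wild-type Cre libraries (4.96 ± 1.11, 3.64 ± 1.24, 3.602 ± 1.83 and 1.84 ± 0.709 CPM per kilobase) and Cacng4, Cacng2, Cacng3 and Cacng5 in wild-type no-Cre libraries (8.97 ± 2.83, 4.69 ± 1.67, 1.63 ± 0.897 and 0.376 ± 0.317). The first 3 of the former order overlap in range.

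**Figure D2:**
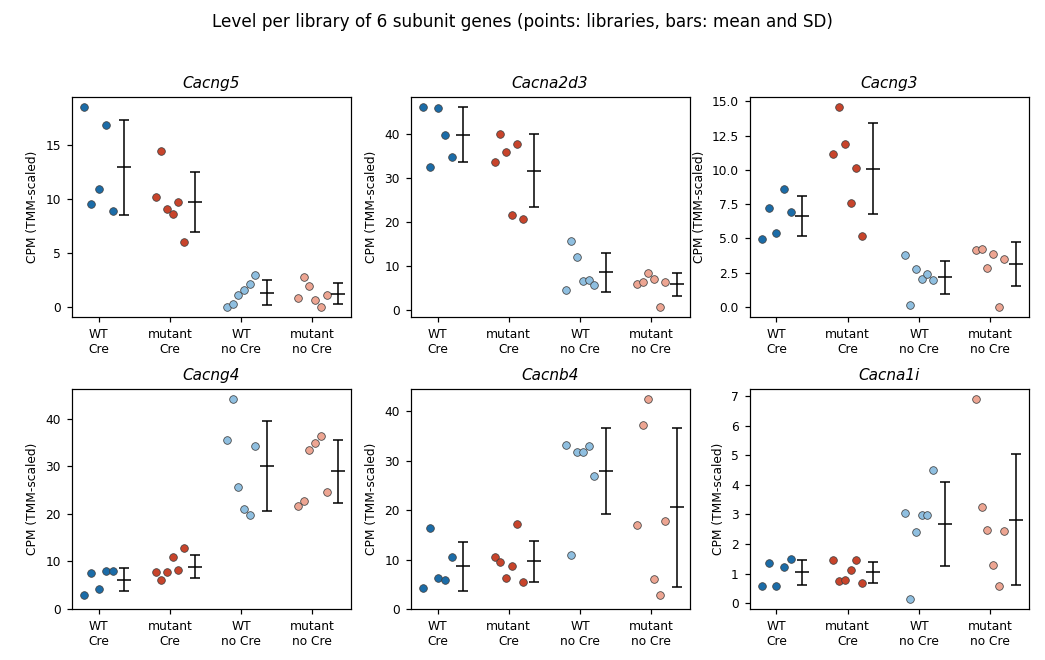
Level in each library (y axis, CPM scaled by TMM) of 3 genes called higher and 3 called lower with Cre on average, by group (x axis), with points for libraries and bars for the mean and SD. Cre libraries lie above all no-Cre libraries for Cacng5, Cacna2d3 and Cacng3 and below them for Cacng4, whereas Cacnb4 and Cacna1i overlap.

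**Figure D3:**
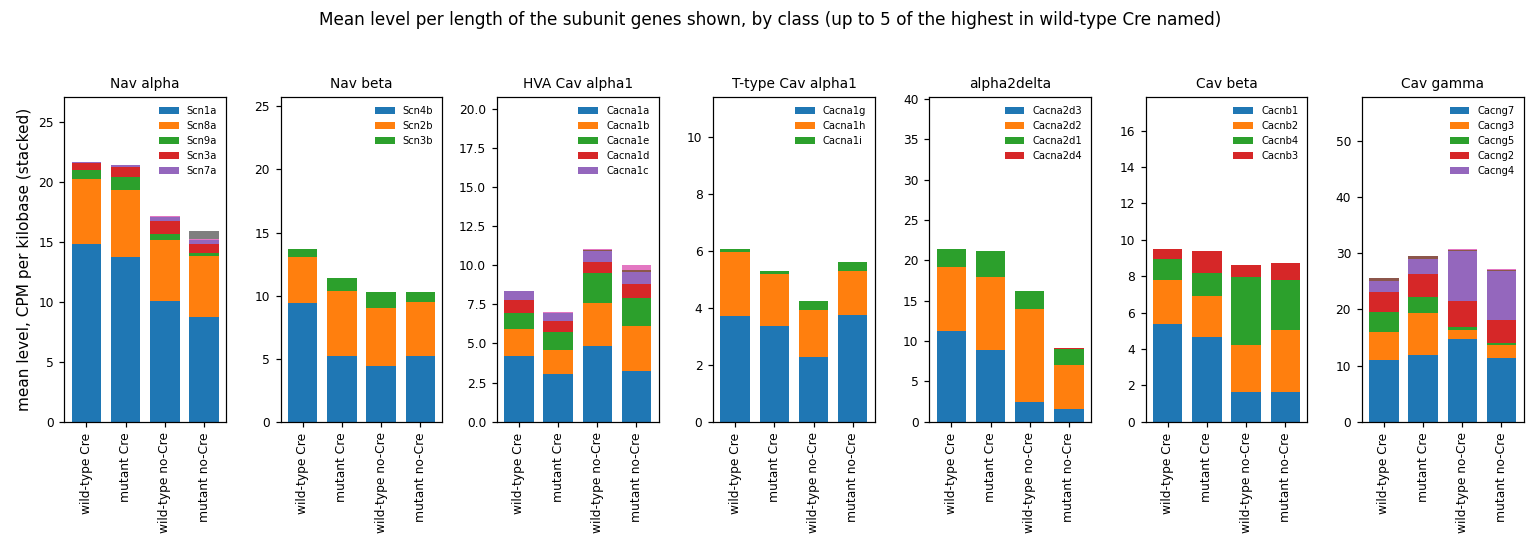
Mean level per length (y axis, CPM per kilobase of effective length, stacked over the genes shown for a class, each panel with its own scale) in the 4 groups (x axis). The Cacna2d3 and Cacnb1 blocks are larger with Cre and the Cacng4 and Cacnb4 blocks smaller, while Scn1a and Cacng7 lead their classes in every group.

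The 9 members below the test's count filter in every comparison included the muscle pores Scn4a and Cacna1s, the sensory neuron pores Scn10a and Scn11a, the retinal pore Cacna1f, and Cacna2d4, Cacng1 and Cacng6. In wild-type Cre libraries they had 0 to 6 counts in all, with Scn4a, Cacng1 and Cacng6 at 0, which allows a level of up to 0.0484 CPM over the group (3 counts, counting error only). The highest single value was Scn4a in mutant no-Cre replicate 5, the shallowest library, at 15.3 CPM, against 0 to 0.863 in the other 5. Skeletal muscle markers summed to 296.0 CPM in that library and to 1.71 to 31.7 CPM in wild-type Cre libraries. They were higher still in mutant no-Cre replicate 3, at 417.8 CPM, where Scn4a was at 0.221 CPM. In wild-type no-Cre replicate 4 they were at 272.4 and Scn4a at 0.559 CPM. The part of muscle RNA in these Scn4a values was not tested. Cacng8, a hippocampal TARP, was too low to be tested in wild type alone or between genotypes without Cre and was not called on average (1.04, SE 0.62, adjusted p = 0.151).

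Genes whose products anchor, modulate or follow these channels were counted in lists. Of 18 sodium channel partners, 10 were higher and 2 lower with Cre on average, with a median of 0.82. The leading ones included the calmodulin gene Calm2 (2.76, SE 0.19), whose protein binds the tails of both channel kinds. Nfasc, which anchors channels at nodes and initial segments, was lower (-1.41, SE 0.20). Counts per gene do not show which cells its RNA came from. All 7 oligodendrocyte and all 5 Schwann cell markers were also lower (medians -2.17 and -1.83), and the part of glial RNA in the Nfasc difference was not tested. Of 14 calcium channel partners tested, 8 were higher and 2 lower, with a median of 0.82. Snap25 of the release machinery (1.84, SE 0.19), Gem, a small GTPase that binds beta subunits (4.42, SE 0.50), and Cabp1, a calcium-binding relative of calmodulin (1.99, SE 0.30), had the smallest p. Among 4 genes of the sodium leak channel complex, the pore Nalcn was higher (1.02, SE 0.25, adjusted p = 0.000953) and 3 were not called, namely Unc79, Unc80 and Fam155a.

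The 6 intracellular calcium release channels were mostly lower with Cre, at 1 higher and 4 lower with a median of -1.09. Inositol trisphosphate receptor genes went both ways, with Itpr2 at -2.50 (SE 0.29), Itpr1 at -1.13 (SE 0.25) and Itpr3 at 1.79 (SE 0.27). Of 10 AMPA receptor pores and auxiliary subunits that work with gamma subunits, 2 were higher and 6 lower, with a median of -0.54. The pores Gria3 (0.81, SE 0.19) and Gria4 (0.63, SE 0.18) were higher, and the auxiliary gene Shisa7 was lower (-1.27, SE 0.35). The edgeR background for these counts is the 22.1% and 34.7% given above, with a median of -0.28 over all genes.

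The comparison the series is named for, C201R against wild type under ChAT-Cre before onset, called 0 of 30 tested members with edgeR at an adjusted p under 0.05, where 0.331% of all 12399 genes were called (0.234% higher and 0.0968% lower). At an unadjusted p under 0.05 there were 7 members, beside 2113 of all genes. DESeq2 called 1 member (Scn4b), beside 3.33% of all genes, and limma-voom with quality weights 2 (Scn4b and Cacna2d1), beside 7% of all genes, so these counts are near each tool's share over all genes. The members' median difference was 0.01 and that of all genes 0.06.

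Scn4b had the smallest p. The wild-type and mutant Cre libraries listed above, 37.4 to 52.0 against 15.4 to 36.2 CPM, do not overlap, and the difference was -0.86 (SE 0.20, edgeR adjusted p = 0.0854). DESeq2 gave -0.88 (adjusted p = 0.00512) and limma-voom -0.84 (0.00847). Over libraries left out, edgeR's adjusted p ran from 0.0182 to 0.226. The lowest came without wild-type Cre replicate 2 (-0.94), where the genes called rose from 41 to 1054 of 12531 (8.41%), so the gained call was not peculiar to Scn4b. That library had oligodendrocyte markers at 2951 CPM, against 534.9 to 762.7 in the other 4 of its group. Within title numbers 20302 and 20401 the log2 ratios were -0.96 and -0.46. In mutant replicates 4 and 6, the libraries with the lowest motor neuron markers, Scn4b was at 21.4 and 15.4 CPM, the lowest of the group. Without title number 18405, which holds both, the Scn4b difference was -0.70 (SE 0.18, edgeR adjusted p = 0.167). Motor neuron markers summed to 394.2 to 478.8 CPM in the mutant Cre libraries left. In wild-type Cre libraries they summed to 404.7 to 572.3 CPM (median 505.2). The part of motor neuron content in the difference was not tested.

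The next by p were not called either. Among them, Cacnb3 was at 1.59, 2.19, 1.32, 1.44 and 0.910 CPM in wild-type Cre libraries and 1.44 to 3.92 (median 3.25) in mutant ones (0.99, SE 0.32, adjusted p = 0.169), and mutant replicate 6 was the only one within the wild-type range. Cacna2d1 was at 11.7, 11.8, 14.6, 10.96 and 11.3 against 11.4 to 21.3 CPM (median 18.6), with a difference of 0.54 (SE 0.18, 0.185). Cacng3 had a difference of 0.59 (SE 0.25, 0.261), with ratios within title numbers 20302 and 20401 of 1.06 and 0.85. Unscaled library totals, which moved the median of all genes to 0.79, turned the sign for Scn4b, and relative to that median its difference was -0.74, against -0.92 relative to the median of the reported scaling.

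**Figure D4:**
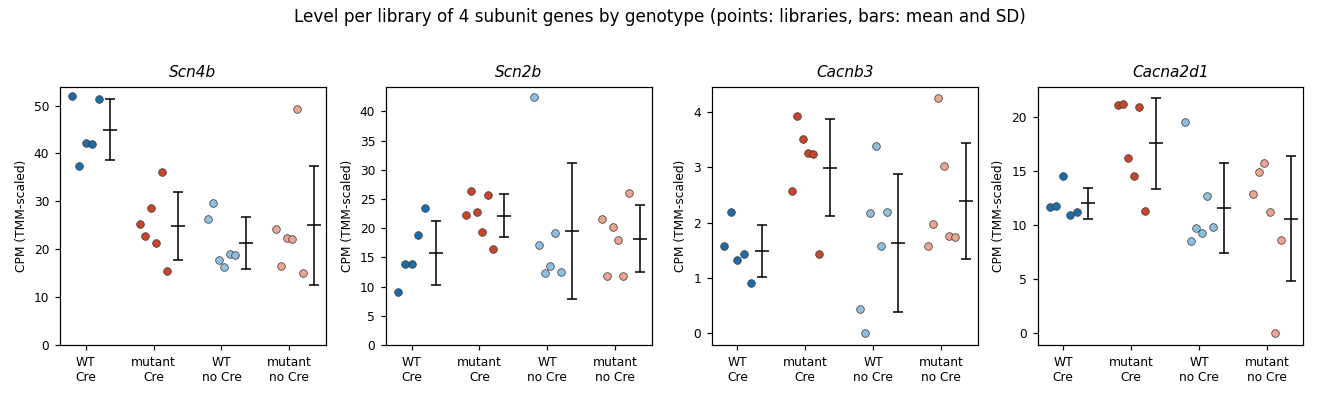
Level in each library (y axis, CPM scaled by TMM) of Scn4b, Scn2b, Cacnb3 and Cacna2d1 by group (x axis), with points for libraries and bars for the mean and SD. All 5 wild-type Cre libraries of Scn4b, from 37.4 CPM up, lie above the 6 mutant Cre libraries, of which the highest is 36.2 CPM, and no such gap is seen for Scn2b, Cacnb3 or Cacna2d1.

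Without Cre, where no tagged ribosomes should be made, 0 of 29 tested members differed between genotypes and 0% of 12588 genes were called by edgeR (565 at an unadjusted p under 0.05, among them 1 member, and 0 members by DESeq2 or limma-voom). That member was Cacna2d2 at -1.11 (SE 0.43, adjusted p = 0.951), whose wild-type mean rests on replicate 2. The difference between the genotype effects with and without Cre was called for 0 of 30 members, beside 0.0207% of 14468 genes (0.0138% higher and 0.00691% lower), and 2 members had an unadjusted p under 0.05. They were Scn4b (-1.05, SE 0.37, edgeR adjusted p = 0.361, or -0.77 and 0.485 without mutant no-Cre replicate 5) and Cacna2d2 (1.245, SE 0.51, 0.412). Scn4b was therefore past the threshold for Cre in wild type and not in mutants, with no called difference between the genotypes.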

How the data were processed

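Anti-haemagglutinin precipitates of 23 spinal cord libraries were measured by RNA-seq. Bowtie2 2.2.0 and RSEM 1.2.12 are named in the submitters' processing notes. The build and annotation behind the counts were not given in the sources used here. The authors' deposited tables hold expected counts per gene, which were rounded to whole numbers and tested. They also hold the authors' deposited TPM, which is not tested here, and the authors' deposited FPKM and gene lengths, of which only the effective length was used, to give CPM per kilobase. Genes were placed by gene ID on GENCODE M21 (GRCm38), where 37607 of 38924 IDs and all 39 members matched.

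Each comparison was fitted over all genes of its own libraries with edgeR 4.0.16 (R 4.3.3), using TMM scaling, filterByExpr (minimum count 10, minimum total 15) and the quasi-likelihood test with Benjamini-Hochberg adjustment at 0.05. The average Cre effect and the difference between genotype effects used all 23 libraries. Levels are TMM-scaled CPM over the 23 libraries. Alternatives were other scalings, DESeq2 1.42.0, limma 3.58.1 (voom), other filters, title number as a block, and each library left out. The fitting code was tested on simulated data. Total counts were 9031629 to 19671837 per library. Precision for low genes is limited by the part outside ribosomal RNA-like genes, 594362 to 6237380 counts per library. The members and lists were chosen with earlier results of these data known. Per class, values are given for the 3 members with the smallest p for the average Cre effect and for the highest per length in wild-type Cre libraries, and then for the 5 smallest p between genotypes with Cre and up to 3 genes of each list. Some genes these rules choose are not reported here, by name or in the figures, though the counts include them. Other members described were chosen after their values were seen. Replicate numbers follow accession order and pair nothing.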

Additional observations from a re-analysis of the deposited data

Results flagged for a closer look

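Of 116 sets of one gene in one group, 15 had a library separated from the rest by more than Dixon's 95% limit for its group size. Chance gives about 1 in 20 for independent values with a normal spread. These libraries differ in depth and the genes of a library share it, so that rate does not hold strictly here. Mutant no-Cre replicate 5, the library with the fewest counts outside ribosomal RNA-like genes, held 6 of them. There Cacng3 was at 0.0 CPM (nearest other library 2.83), Cacng7 at 4.11 (22.4), Scn1a at 19.4 (48.1) and Cacna2d3 at 0.587 (5.88), all lowest of their group. In the same library Scn4b at 49.3 CPM (24.2) and Cacna1g at 40.5 (17.2) were highest. Wild-type no-Cre replicate 2 held 4, with Cacnb4 lowest at 10.9 CPM (26.9) and Scn1a at 104.4 (56.7), Cacna2d2 at 82.9 (19.2) and Cacna1a at 45.8 (21.5) highest. Motor neuron markers summed to 82.7 CPM in that library, against 20.4 to 31.4 in the other 5 of its group, and their part in these values was not tested.

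Wild-type no-Cre replicate 1 was highest for Scn9a at 9.72 CPM (nearest 3.15) and Scn2b at 42.5 (19.2), and replicate 3 for Cacng8 at 1.33 (0.290). Among wild-type Cre libraries, replicate 5 was highest for Cacnb1 at 15.8 CPM (11.3) and replicate 3 for Cacna2d1 at 14.6 (11.8).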

How the results depend on the processing

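Of the results for single genes, 790 values under an alternative kept their direction and side of the threshold, 52 lost a call, 4 gained one and 2 turned sign. Of counts of members called, 283 stayed within 1.5 times of the reported one and 21 did not. With library totals as the only scaling, 3 members were called higher and 0 lower with Cre in wild type, 0 lower in mutants and 1 lower on average, beside 3.24% of all genes higher and 4.02% lower in wild type, 25.5% and 2.16% in mutants and 23.4% and 9.33% on average. Under that scaling Cacna1e in mutants was at 0.555, and Scn4b between genotypes with Cre was at 0.048. The medians of all genes were then 1.13 in mutants and 0.79 between genotypes. With limma-voom 7 members were called lower in wild type and 6 in mutants, beside 36% and 30.2% of all genes, and between genotypes with Cre 1 higher and 1 lower (2.11% and 4.89%), where DESeq2 called 1 lower (2.35%). The count called lower in wild type was 4 with a filter at 5 CPM (30.7% of all genes tested), 4 with all 23 libraries in one fit (29.3%) and 6 with title number as a block (23.9%). In mutants the block left 3 libraries, with only 1 no-Cre library among them, and no block term, so its counts are not given. Without title number 18405 there was 1 lower in mutants, beside 18.2% of all genes. Leaving out each library gave 6 to 7 higher and 2 to 6 lower in wild type, beside 16.3 to 24% and 20.8 to 29% of all genes. In mutants it gave 6 to 8 higher and 1 to 4 lower (11.2 to 20.3% and 15 to 18.4%). On average it gave 8 to 9 higher and 5 to 7 lower (20.7 to 25.4% and 30.2 to 35.8%). Between genotypes with Cre it gave 0 to 2 lower (0.00779 to 5.04%). The 6 lower in wild type came without wild-type no-Cre replicate 2, where 29% of all genes were lower. The 2 lower between genotypes (Scn4b among them) came without wild-type Cre replicate 2, where 5.04% were. The 1 lower in mutants came without mutant no-Cre replicate 1 or mutant Cre replicate 2, 3 or 6. The cause of these changes was not tested. The alternative without wild-type no-Cre replicate 2 and mutant no-Cre replicate 5 was chosen after seeing the data. No paired analysis was possible because replicate numbers follow accession order and carry no pairing. Of the members tested, Cacng8 (211 counts over all libraries), Scn7a (686), Cacna1i (751), Cacnb3 (967) and Scn3b (1023) had the fewest counts.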

Other observations

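Among related genes outside the naming pattern, Scn2a1, a sodium channel pore of unmyelinated axons and initial segments, was lower with Cre on average (-0.42, SE 0.15, edgeR adjusted p = 0.0173). Its means were 12.8 ± 2.39 CPM in wild-type Cre (SD, n = 5), 15.1 ± 2.09 in mutant Cre, 19.9 ± 2.67 in wild-type no-Cre and 17.5 ± 4.10 in mutant no-Cre libraries (n = 6 each). The endolysosomal cation channel genes Tpcn1 (-1.47, SE 0.36) and Tpcn2 (-2.26, SE 0.63) were lower as well, as was Catsper2 (-1.44, SE 0.56), while Scnm1, a splicing factor named for its effect on a sodium channel transcript, was higher (0.78, SE 0.29).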
